A study of Mus musculus with 16 samples.

Results

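The genes described here are 10 genes of blood vessels and their growth, Vegfa, Kdr, Flt1, Tek, Tie1, Pecam1, Cdh5, Esam, Emcn and Vwf, chosen by name from the 54532 genes of the deposited table. Bulk RNA-seq measured them in inguinal white adipose tissue (iWAT), the subcutaneous fat pad of the groin, from male mice that entered the study at 8 to 10 weeks of age. Has2_TG mice (Apn-Has2) carried Apn-rtTA, a doxycycline-dependent activator driven by the adiponectin promoter of adipocytes, together with a TRE-Has2 transgene for a hyaluronan synthase. PH20_TG mice (Apn-PH20) carried Apn-rtTA with a TRE-PH20 transgene (Spam1), which encodes a hyaluronidase. Has2_WT and PH20_WT were the respective littermates, which were not plain wild type but carried Apn-rtTA alone. The 16 libraries, 4 in each of the 4 groups, came from mice fed chow with 200 mg/kg doxycycline for 5 days, and each comparison asks how making more or less hyaluronan, a large sugar polymer of the extracellular matrix, altered the tissue at this time.

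The targeted genes were examined first. Has2 was at 0.806, 0.474, 0.417 and 0.643 FPKM (fragments per gene length and sequencing depth) in Has2_WT 1 to 4 and at 2.28, 1.86, 3.24 and 2.97 FPKM in Has2_TG 1 to 4, a log2 difference of 1.98 (SE 0.30, adjusted p = 0.0540). The groups did not overlap, although the libraries labelled PH20_TG 1 and PH20_TG 4 reached the level of Has2_TG at 3.32 and 3.26 FPKM, against 0.380 and 0.0990 FPKM in PH20_TG 2 and 3. Spam1 had 6, 12 and 5 reads in PH20_TG 2, 3 and 4 and 0 reads in PH20_TG 1 and in all other libraries, where a floor of 3 reads corresponds to 0.0497 to 0.0860 FPKM. The library labelled PH20_TG 1 thus went against its label on Spam1. It and the one labelled PH20_TG 4 were also high in Has2, a gene that the PH20 label does not predict. Whether either belongs to its labelled group could not be settled from the labels, so library names below are those of the labels, and the main PH20 values are also given without PH20_TG 1. Markers of the labelled tissue were present throughout, with 7 adipocyte genes summing to 3089 to 7546 FPKM. Several libraries stood apart in other cell types. Summed FPKM of 10 skeletal muscle genes ran from 7.92 to 1126, and of 7 B cell genes from 1.31 to 304, with the high B cell values in Has2_WT and PH20_WT libraries only. The libraries held 14421692 to 26751729 reads on genes.

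Endothelial cells line the vessels through which fat receives oxygen and releases lipids. Vegfa is the secreted growth factor that drives their growth, and adipocytes are among the cells that make it. It binds Kdr, the main signalling receptor, and Flt1, which binds it tightly and acts in good part as a decoy. Tek (also called TIE2) is the endothelial receptor of the angiopoietins, which govern vessel stability, and Tie1 is its partner with no angiopoietin of its own. Pecam1 and Cdh5 hold neighbouring endothelial cells together, and Pecam1 is also present on platelets and leukocytes. Esam is a further junction protein, Emcn is a sialomucin of capillaries and veins, and Vwf is the clotting glycoprotein that endothelial cells store and release.

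RefSeq promoter sequence (build GRCm38.p6) was found for 6 of the 10 genes. The 250 bases before the RefSeq start are shown for the growth factor, its pair of receptors and Tek, because these are the genes on which the comparisons below turn. Capitals mark GGAAG, which holds the core of ETS factor sites, and GGGCGG, the core letters of a GC box, on either strand. ACGTG, the core of hypoxia response elements, was searched as well on both strands and was not found in these windows.
Vegfa, chr17:46032378-46032627, minus strand: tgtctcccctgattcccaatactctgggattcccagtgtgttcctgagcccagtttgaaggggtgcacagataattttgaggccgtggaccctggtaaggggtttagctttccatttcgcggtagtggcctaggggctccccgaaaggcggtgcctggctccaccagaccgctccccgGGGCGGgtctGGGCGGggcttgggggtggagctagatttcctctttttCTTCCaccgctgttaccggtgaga
Kdr, chr5:75978456-75978705, minus strand: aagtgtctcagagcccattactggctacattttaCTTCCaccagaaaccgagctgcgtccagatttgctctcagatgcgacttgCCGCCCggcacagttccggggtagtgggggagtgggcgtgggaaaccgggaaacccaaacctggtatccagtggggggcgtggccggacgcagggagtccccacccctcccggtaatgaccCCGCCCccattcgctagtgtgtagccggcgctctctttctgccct
Flt1, chr5:147726012-147726261, minus strand: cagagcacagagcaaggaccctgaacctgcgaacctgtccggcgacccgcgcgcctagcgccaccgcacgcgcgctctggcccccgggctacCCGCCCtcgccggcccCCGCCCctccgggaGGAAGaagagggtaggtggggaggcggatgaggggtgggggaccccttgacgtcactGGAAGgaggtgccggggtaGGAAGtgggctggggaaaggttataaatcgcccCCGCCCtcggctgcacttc
Tek, chr4:94739039-94739288, plus strand: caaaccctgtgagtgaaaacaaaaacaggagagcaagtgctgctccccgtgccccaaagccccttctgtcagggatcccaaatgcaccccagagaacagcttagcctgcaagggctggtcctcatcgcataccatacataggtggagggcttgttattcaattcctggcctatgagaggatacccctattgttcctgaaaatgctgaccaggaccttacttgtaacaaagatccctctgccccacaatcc
Among 32851 promoter windows of the same length, 64.1% held GGAAG, 32.7% GGGCGG and 16.6% ACGTG. Flt1 had 3 GGAAG and 3 GGGCGG matches, and Vegfa and Kdr each had 1 and 2, whereas the Tek window had none of the 3 motifs. Its G and C content was 51.2%, against 59.2% for Vegfa, 61.6% for Kdr and 70.4% for Flt1. Upstream windows were also read for Tie1, with 6 GGAAG matches, and Emcn, with 2. Neither held GGGCGG or ACGTG. Only the full GGAAG was searched, not the shorter core inside it. A match is a match of letters only.

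The 10 genes spanned a wide range of levels. Averaged over the 16 libraries, Vegfa was the most abundant at 83.6 FPKM, above 95.8% of the genes tested, and Vwf the least at 2.16 FPKM, above 21.0%. In Has2_WT, Vegfa (89.0 ± 20.5 FPKM, SD, n = 4) lay above Cdh5 (34.4 ± 10.3) without overlap. Cdh5, Pecam1, Esam, Kdr, Tie1 and Tek then followed in an order in which each overlapped its neighbour. Tek at 8.64 ± 2.81 FPKM stood above Flt1 at 4.57 ± 1.23 without overlap, and Flt1, Emcn and Vwf overlapped in turn. The order differed in Has2_TG, where Tek at 21.0 ± 6.84 FPKM came just after Esam and overlapped both Esam and Tie1. In every library each of the 10 genes was covered by at least 114 reads, and all 10 passed the minimum of 50 reads on average in every comparison. The genes lie on separate stretches of chromosomes 3, 4, 5, 6, 8, 9, 11 and 17. The one overlapping annotated gene was an antisense transcript across Cdh5, which had at most 4 reads against at least 1743 for Cdh5.

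**Figure D1:**
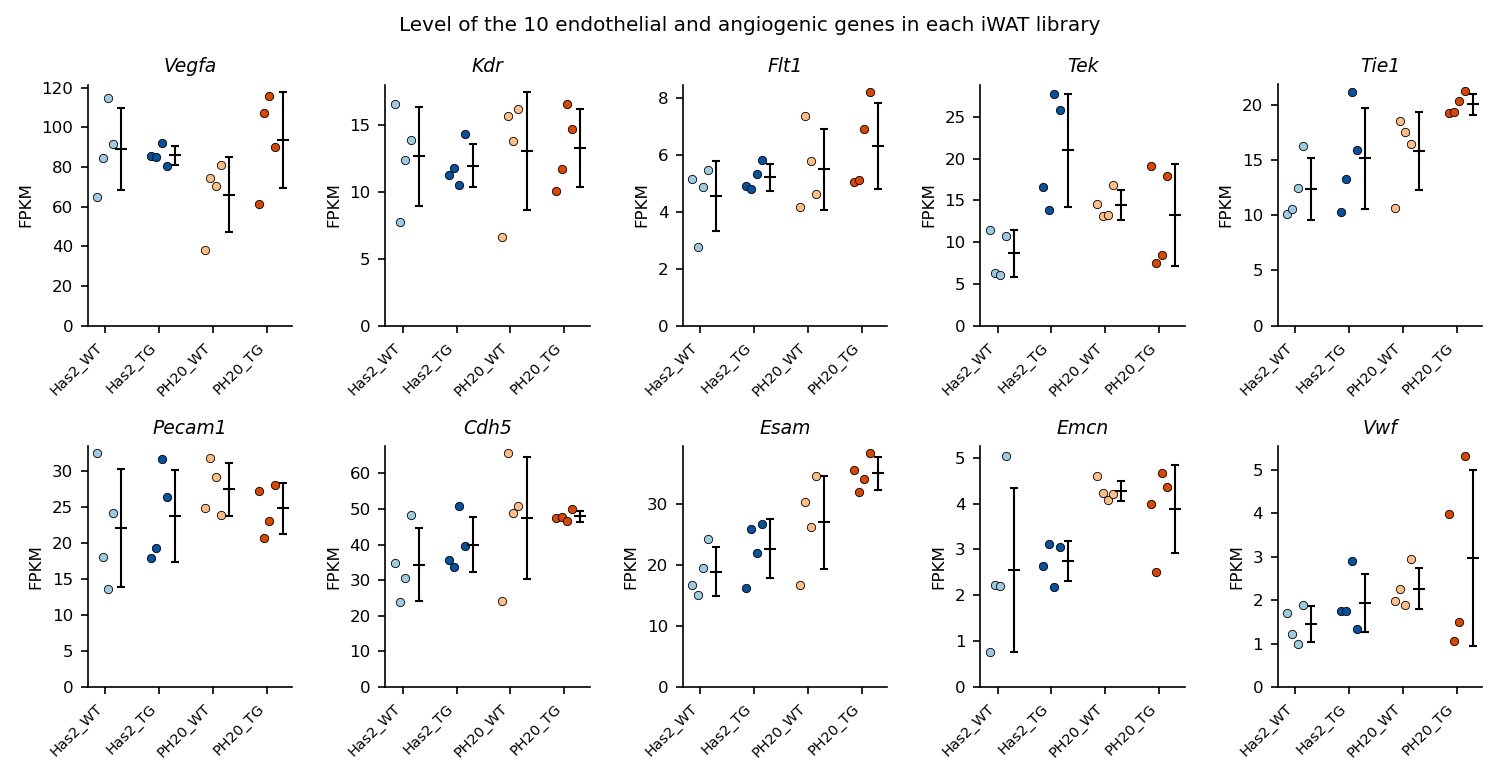
FPKM of each of the 10 genes in every library (points) by group, with the mean and SD (bars, n = 4) beside them, on linear axes from 0. The Tek panel shows 4 Has2_TG libraries between 13.8 and 27.7 FPKM, all above the 4 Has2_WT libraries, while in PH20_TG the libraries fall into a high and a low pair.

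The first comparison asked which of these genes differed when adipocytes were driven to make more hyaluronan. Tek was the one that passed the test: its level was 2.41 times that of the controls (95% CI 1.53 to 3.80), while the growth factor, its receptors and the other endothelial genes showed no difference past the test. At the threshold used throughout (unadjusted p < 0.05 in limma), 1 of the 10 genes was higher in Has2_TG and 0 were lower, and 10.0% of all 12606 genes tested were called in either direction, 6.25% as higher and 3.75% as lower. The 1 call among 10 was thus near the share of all genes called in either direction. None of the 10 passed after Benjamini-Hochberg adjustment over all genes, a step that 13 genes passed in this comparison (0.103%). The median log2 difference of the 10 genes was 0.25, beside -0.03 over all genes tested, and 8 of the 10 differences were positive.

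Tek measured 11.4, 6.35, 6.09 and 10.7 FPKM in Has2_WT 1 to 4. In Has2_TG 1 to 4 it measured 16.6, 13.8, 27.7 and 25.8 FPKM. All 4 transgenic libraries were above all 4 controls, as was so in one direction or the other for 6.19% of the genes tested, and libraries 3 and 4 of Has2_TG were the highest of all 16. The log2 difference was 1.27 (SE 0.29, 95% CI 0.61 to 1.92, adjusted p = 0.111). An exact two-sided permutation test over the 8 libraries gave p = 0.0286, the smallest value that 4 against 4 allows. Tek lies at chr4:94739289-94874976 on the plus strand of GRCm38, with 23 exons in its longest coding transcript.

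A second group of genes moved together with Tek across the libraries. The list of 6 adipocyte progenitor genes (Pdgfra, Dpp4, Pi16, Dcn, Lum and Col15a1, genes of the stromal cells from which adipocytes arise) summed to 186, 152, 158 and 298 FPKM in Has2_WT 1 to 4 and to 347, 355, 574 and 542 FPKM in Has2_TG 1 to 4. Again the groups did not overlap, and 5 of the 6 progenitor genes were called higher, where 6.25% of all genes were. The remaining progenitor gene had a negative difference. Over the 16 libraries the Pearson correlation of log2 Tek with the mean of the progenitor genes was 0.86, and it was 0.97 over the 8 Has2 libraries and 0.90 over the 8 PH20 libraries. Tek was not alone in this. Over the 8 Has2 libraries the correlation was 0.75 for Cdh5, 0.69 for Tie1 and 0.68 for Vwf, but -0.15 for Vegfa. Over the 8 PH20 libraries it was 0.76 for Vwf, -0.36 for Cdh5, -0.37 for Tie1 and -0.70 for Vegfa. These values are descriptions over libraries that share groups. With that progenitor score as a covariate, chosen after the values were seen, the Has2 difference of Tek was 0.06 (SE 0.32, adjusted p = 0.981), so the call was lost. Because the score itself separated the 2 groups, transgene and progenitor content cannot be told apart for Tek in these 8 libraries. In bulk tissue, fewer cells of a type and less RNA per cell cannot be told apart either. Macrophage genes were also higher in Has2_TG (7 genes summing to 675 to 900 FPKM, against 311 to 621 in Has2_WT). Of these 7 genes 5 were called higher, against 6.25% of all genes, and their part in the Tek result was not tested.

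The other Tie receptor did not pass the test. Tie1 measured 10.1, 10.6, 12.5 and 16.3 FPKM in Has2_WT 1 to 4 and 10.3, 13.3, 21.2 and 15.9 FPKM in Has2_TG 1 to 4. The groups overlapped, with a log2 difference of 0.27 (95% CI -0.27 to 0.81, adjusted p = 0.771). The ratio of Tek to Tie1 overlapped as well, at 1.03 to 1.62 in Has2_TG and 0.487 to 1.13 in Has2_WT. Ratios of Tek to some other endothelial genes did not overlap. Tek divided by Pecam1 was 0.711 to 0.983 in Has2_TG and 0.350 to 0.448 in Has2_WT, and Tek divided by the geometric mean of the other 8 endothelial genes was 1.44 to 2.45 against 0.781 to 1.38. Of the 8 ratios of Tek to a single endothelial gene, 5 did not overlap between the Has2 groups (those to Kdr, Flt1, Pecam1, Cdh5 and Vwf). In the PH20 groups 0 of the 8 ratios separated. These ratios contain Tek itself and are given without a test.

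**Figure D2:**
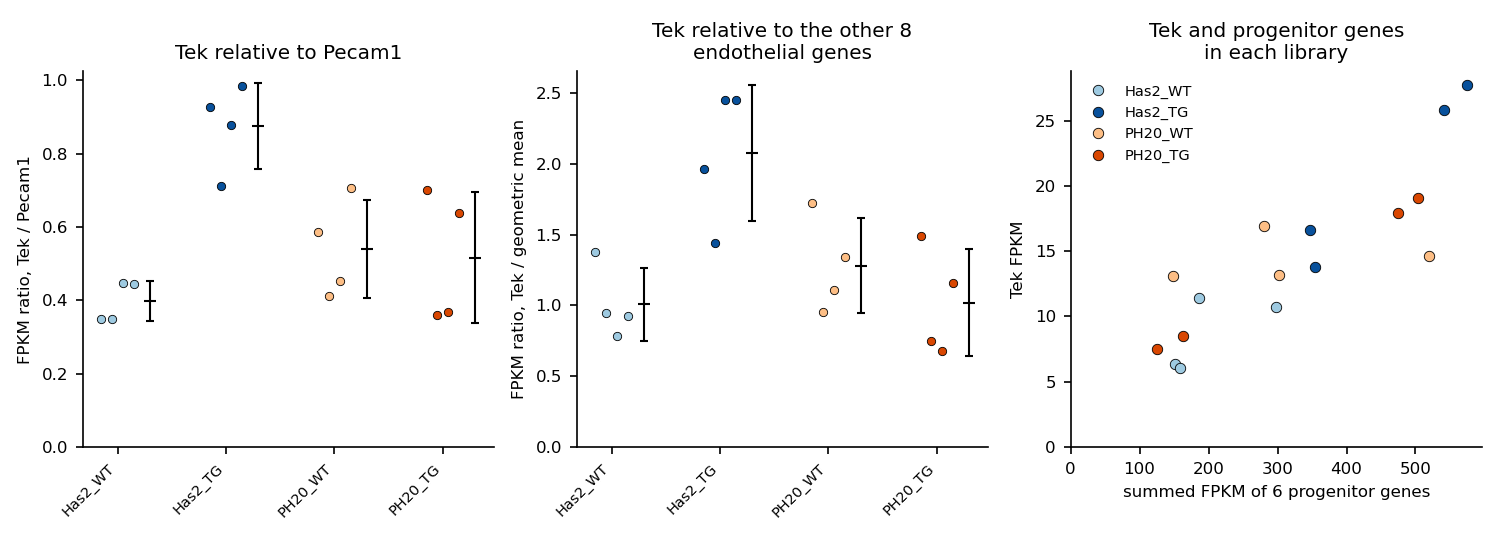
Tek relative to Pecam1 (left) and to the geometric mean of the other 8 endothelial genes (middle), both as FPKM ratios by group with mean and SD (n = 4), and Tek FPKM against the summed FPKM of 6 progenitor genes (right, 1 point per library). The Has2_TG libraries lie above their controls in the left and middle panels, and on the right the libraries with the 4 highest Tek levels, a pair from each transgenic line, also have summed progenitor levels of 474 FPKM or more.

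For the growth factor and its receptors, the Has2 groups overlapped throughout. Vegfa was at 65.1, 84.5, 115 and 91.6 FPKM in Has2_WT 1 to 4 and at 85.6, 85.1, 92.3 and 80.3 FPKM in Has2_TG 1 to 4. The transgenic libraries sat within the range of the controls, and the log2 difference of -0.02 (95% CI -0.42 to 0.37, adjusted p = 0.985) had an interval reaching from 0.748-fold to 1.29-fold. Kdr averaged 12.0 ± 1.63 FPKM in Has2_TG and 12.7 ± 3.73 in Has2_WT (log2 difference -0.04, 95% CI -0.56 to 0.48, adjusted p = 0.983). Flt1 averaged 5.22 ± 0.472 and 4.57 ± 1.23 FPKM (0.23, 95% CI -0.29 to 0.75, adjusted p = 0.805). As a ratio within each library, Kdr to Flt1 was 1.97 to 2.45 in Has2_TG and 2.54 to 3.22 in Has2_WT, without overlap, a value given with no test.

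Junction and surface genes were likewise spread across both groups. Cdh5 averaged 39.9 ± 7.67 FPKM in Has2_TG and 34.4 ± 10.3 in Has2_WT (log2 difference 0.24, 95% CI -0.26 to 0.75, adjusted p = 0.779), and Esam averaged 22.7 ± 4.83 and 18.9 ± 4.03 FPKM (0.26, 95% CI -0.21 to 0.73, adjusted p = 0.737). Pecam1 measured 32.5, 18.1, 13.6 and 24.1 FPKM in Has2_WT 1 to 4 and 17.9, 19.3, 31.6 and 26.3 FPKM in Has2_TG 1 to 4. Its highest value came from Has2_WT 1, and the log2 difference was 0.14 (95% CI -0.49 to 0.78, adjusted p = 0.913). Emcn varied most among the controls, with 0.774, 2.23, 2.20 and 5.04 FPKM in Has2_WT 1 to 4, a coefficient of variation of 69.9%, against 2.19 to 3.12 FPKM in Has2_TG. Its interval was accordingly the widest of the 10, from -0.68 to 1.38 around a log2 difference of 0.35. Vwf averaged 1.94 ± 0.678 and 1.46 ± 0.414 FPKM (log2 difference 0.37, 95% CI -0.33 to 1.07, adjusted p = 0.751).

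The second comparison asked the same of mice whose adipocytes made a hyaluronan-degrading enzyme. None of the 10 genes passed the limma test in either direction at unadjusted p < 0.05, where 6.59% of 12532 genes did, and 0 genes of the whole table passed after adjustment. The differences ran from -0.24 to 0.52 on the log2 scale, with adjusted p from 0.731 to 0.970, and their median was 0.11 beside 0.01 over all genes. Tie1 was the 1 gene of the 10 whose groups did not overlap, compared with 4.54% of all genes.

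Tie1 measured 10.7, 18.6, 17.6 and 16.5 FPKM in PH20_WT 1 to 4 and 19.3, 19.4, 20.4 and 21.3 FPKM in PH20_TG 1 to 4. All transgenic libraries lay above the controls, narrowly so for PH20_WT 2, with a log2 difference of 0.37 (SE 0.18, 95% CI -0.03 to 0.78, adjusted p = 0.731). The exact two-sided permutation test gave p = 0.0286, again the smallest it can give. Esam, the junction gene whose levels followed Tie1 most closely over the 16 libraries (Pearson r = 0.87), averaged 35.1 ± 2.66 FPKM in PH20_TG and 27.0 ± 7.61 in PH20_WT (0.42, 95% CI -0.06 to 0.90, adjusted p = 0.731). For both genes PH20_WT 1 was the lowest library, and it was also the library with the most B cell RNA (304 FPKM summed) and the lowest Vegfa, Kdr and Cdh5 of its group. Without PH20_WT 1 the differences were 0.19 for Tie1 and 0.21 for Esam. Without the library labelled PH20_TG 1 they were 0.39 and 0.41. With the mean level of the B cell genes (the B cell score) as a covariate they were 0.12 and -0.0023. Without PH20_WT 2 Tie1 passed (0.46, adjusted p = 0.533), and without PH20_WT 4 Esam did (0.56, adjusted p = 0.644).

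Vegfa had the largest positive difference of the 10 in this comparison. It measured 38.3, 74.4, 70.3 and 80.8 FPKM in PH20_WT 1 to 4 and 61.2, 107, 116 and 90.0 FPKM in PH20_TG 1 to 4. The groups overlapped through PH20_TG 1, and the log2 difference of 0.52 (SE 0.28, 95% CI -0.12 to 1.16) did not pass (adjusted p = 0.736). Without the library labelled PH20_TG 1, which had no Spam1 reads, Vegfa passed the threshold (0.71, adjusted p = 0.524), and without PH20_WT 1 it was 0.28. Vegfa divided by Kdr was 6.09 to 9.20 in PH20_TG and 4.74 to 5.76 in PH20_WT, without overlap and with no test. Kdr itself averaged 13.2 ± 2.94 and 13.1 ± 4.42 FPKM, and Flt1 6.34 ± 1.52 and 5.50 ± 1.44 FPKM, with adjusted p = 0.970 and adjusted p = 0.854.

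Tek showed a different picture in this line. It measured 14.6, 13.1, 13.2 and 16.9 FPKM in PH20_WT 1 to 4 and 19.1, 7.48, 8.51 and 17.9 FPKM in PH20_TG 1 to 4. The controls were tightly grouped, whereas the transgenic libraries split into a pair above all controls and a pair below them (log2 difference -0.24, 95% CI -0.95 to 0.47, adjusted p = 0.873). Without the library labelled PH20_TG 1 the difference was -0.46 (adjusted p = 0.586). The progenitor genes were high in the same pair, summing to 504 and 474 FPKM in PH20_TG 1 and 4 and to 126 and 163 FPKM in PH20_TG 2 and 3, but their controls spread over most of that range, with 519, 148, 302 and 281 FPKM in PH20_WT 1 to 4. Vwf split around its controls as Tek did, with 3.99 and 5.33 FPKM in PH20_TG 1 and 4 and 1.07 and 1.50 FPKM in PH20_TG 2 and 3, around a PH20_WT mean of 2.26 ± 0.477 FPKM. Has2 was high in PH20_TG 1 and 4 as well, as given above. Cdh5 did not, with an SD of 1.46 FPKM around 47.9 FPKM in PH20_TG, nor did Tie1.

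Pecam1, Cdh5 and Emcn differed by less than the spread between libraries. Pecam1 averaged 24.8 ± 3.48 FPKM in PH20_TG and 27.5 ± 3.70 in PH20_WT (log2 difference -0.15, 95% CI -0.48 to 0.19, adjusted p = 0.838), the narrowest interval of the 10. Cdh5 averaged 47.9 ± 1.46 and 47.4 ± 17.1 FPKM (0.10, 95% CI -0.51 to 0.72, adjusted p = 0.944), its controls ranging from 24.3 to 65.6 FPKM. Emcn averaged 3.88 ± 0.957 and 4.27 ± 0.225 FPKM (-0.17, 95% CI -0.63 to 0.28, adjusted p = 0.858). Skeletal muscle RNA moved with the groups here, since all 10 muscle genes were lower in PH20_TG (10.9 to 319 FPKM summed, against 269 to 1126 in PH20_WT). With the muscle score as a covariate Flt1 passed (0.82, adjusted p = 0.999), and Tek, Pecam1 and Emcn turned positive without passing.

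**Figure D3:**
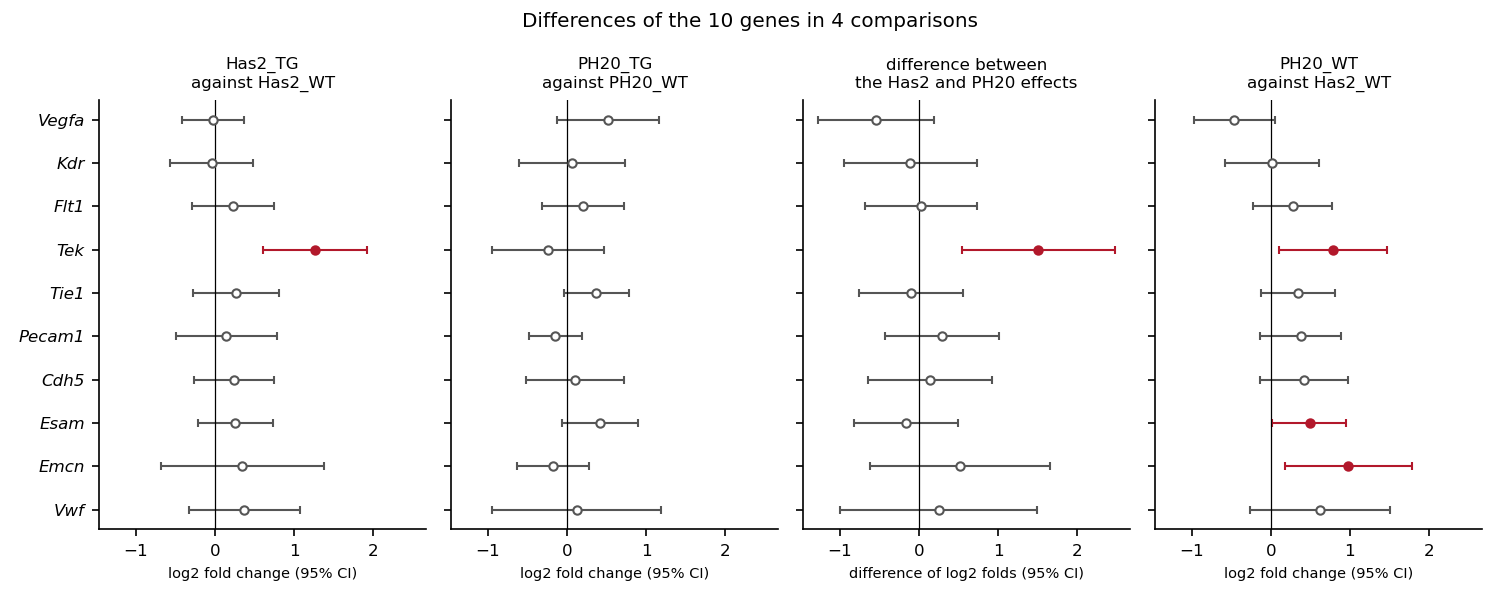
Log2 differences of the 10 genes with 95% confidence intervals in 4 comparisons, from limma on log2(FPKM + 0.1), with filled red points where unadjusted p was under 0.05. Tek is the one gene called in the Has2 comparison (1.27) and in the difference between the lines (1.51), no gene is called in the PH20 comparison, and Tek, Esam and Emcn are called between the control groups.

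Whether a gene responded differently in the 2 lines was tested directly, as the Has2 difference minus the PH20 difference over all 16 libraries. Tek differed by 1.51 on the log2 scale (SE 0.46, 95% CI 0.54 to 2.48, adjusted p = 0.571), and by 1.72 without the library labelled PH20_TG 1. It was the 1 gene of the 10 to pass, a count near the share of all genes. Of 12593 genes, 7.70% were called in either direction, 4.03% as higher and 3.68% as lower. With the progenitor score as a covariate the difference was smaller, at 0.72 (SE 0.31, adjusted p = 0.901), and still past the threshold. The score itself separated the Has2 groups, and over the 8 Has2 libraries the same covariate left 0.06 (SE 0.32). Transgene and progenitor content therefore cannot be told apart by this fit either. The other 9 genes did not pass, with differences from -0.54 for Vegfa (95% CI -1.27 to 0.19, adjusted p = 0.738) to 0.52 for Emcn (95% CI -0.61 to 1.66, adjusted p = 0.872).

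The control groups of the 2 lines were not alike for these genes. Both carried Apn-rtTA and ate the same chow, yet 3 of the 10 genes were higher in PH20_WT than in Has2_WT and 0 were lower, where 10.3% of all genes were called in either direction and 4.66% higher. Emcn averaged 4.27 ± 0.225 FPKM in PH20_WT and 2.56 ± 1.79 in Has2_WT (log2 difference 0.98, SE 0.38, adjusted p = 0.421). Tek was at 14.5 ± 1.78 and 8.64 ± 2.81 FPKM (0.79, SE 0.32, adjusted p = 0.434), with no overlap, and Esam at 27.0 ± 7.61 and 18.9 ± 4.03 FPKM (0.49, SE 0.22, adjusted p = 0.468). In all, 9 of the 10 genes were higher in PH20_WT, with a median log2 difference of 0.40 against 0.01 for all genes, and the exception was Vegfa at -0.46 (adjusted p = 0.530). Line, litter and handling cannot be told apart in this comparison. Other cell types moved with it: muscle genes summed to 269 to 1126 FPKM in PH20_WT against 26.0 to 126 in Has2_WT, with 10 of 10 differences positive. Macrophage genes summed to 647 to 1118 against 311 to 621 FPKM, with 7 of 7 positive, and platelet genes to 51.7 to 62.5 against 21.9 to 43.6 FPKM. Only 2 of the 5 platelet genes had enough reads to test, with 1 difference positive and 1 negative. With the muscle score as a covariate the calls of Esam (0.47) and Emcn (0.84) were lost and that of Tek was kept, and the part of macrophage and platelet genes was not tested. Single libraries changed these calls. Emcn was lost without Has2_WT 1 (0.53), Tek without Has2_WT 2 (0.66), Has2_WT 3 (0.64) or PH20_WT 4 (0.71), and Esam without any one of 6 libraries (0.35 to 0.51), Has2_WT 1, 2 and 3 and PH20_WT 2, 3 and 4. Without Has2_WT 4 or PH20_WT 1, 5 of the 10 were called.

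The wider vascular programme was read from 8 lists of 78 other genes, 70 of which had enough reads to test. In the Has2 comparison 4 of the 70 were higher (5.71%) and 3 lower (4.29%), shares close to the 6.25% and 3.75% of all genes. In the PH20 comparison 4 were higher (5.71%, against 3.20% of all genes) and 0 lower (3.39% of all genes). Between the controls 12 were higher in PH20_WT (17.1%, against 4.66%) and 2 lower (2.86%, against 5.61%). Median log2 differences were 0.16, 0.19 and 0.28.

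Of all genes 6.25% were called higher in Has2_TG, and among the ligands and receptors around Vegfa, 1 of 7 genes of the VEGF family was. This was Vegfc, the growth factor of lymphatic vessels, at 1.53 ± 0.864 FPKM against 0.592 ± 0.166 (log2 difference 1.10, adjusted p = 0.432), with overlapping groups, and its call was lost without Has2_WT 1 or Has2_WT 4 (1.00 in each case). It was lost as well with no minimum of reads (1.10), with a mean FPKM of at least 1 (1.10) and with voom weights (1.29). All 7 family members had positive differences in Has2, and in PH20 2 were positive and 0 passed. Of the angiopoietin and Tie list (the ligands of Tek, its phosphatase Ptprb and the transcription factor Foxo1), 4 of 5 genes were tested and 0 passed in either line by limma at unadjusted p < 0.05. The 7 capillary genes also gave 0 calls in either line, where 10.0% of all genes were called in Has2 and 6.59% in PH20.

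In the list of 20 other blood endothelial genes, 1 rose in Has2_TG and 2 in PH20_TG, where 6.25% and 3.20% of all genes did. The median log2 differences of the list were 0.22 and 0.23. Acvrl1, the endothelial type I receptor of bone morphogenetic proteins, was at 12.8 ± 3.63 FPKM in Has2_TG and 7.37 ± 1.81 in Has2_WT (0.78, adjusted p = 0.291), without overlap, and it kept its call without any single library. Egfl7, a protein secreted by endothelial cells, was at 39.6 ± 10.4 FPKM in PH20_TG and 26.3 ± 1.46 in PH20_WT (0.54, adjusted p = 0.703). Tal1, a transcription factor of blood and endothelial precursors, was at 1.47 ± 0.257 and 0.809 ± 0.457 FPKM (0.89, adjusted p = 0.703). Leaving out any one of 5 libraries ended the call for Egfl7 (0.43 to 0.53, all but PH20_WT 2, PH20_WT 4 and PH20_TG 1), and any one of 6 did for Tal1 (0.65 to 0.87, all but PH20_WT 4 and PH20_TG 2). Without the library labelled PH20_TG 1 the values were 0.75 for Egfl7 and 0.83 for Tal1. The B cell score as a covariate ended both calls (0.50 and 0.68), and so did the muscle score (0.67 and 0.96). That of Tal1 was also lost with no minimum of reads (0.89) and with a mean FPKM of at least 1 (0.89).

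Genes of vessel identity and sprouting were few. Ackr1, a chemokine-binding protein of venules, showed the largest difference of the lists in Has2: 15.6 ± 8.85 FPKM in Has2_TG against 5.01 ± 1.15 in Has2_WT (log2 difference 1.48, SE 0.37, adjusted p = 0.150), without overlap and past the threshold without any single library. Notch1, the receptor, fell by 0.67 on the log2 scale (2.85 ± 0.723 against 4.60 ± 1.21 FPKM, adjusted p = 0.435), and in PH20_TG the Notch ligand Jag2 rose by 0.69 (4.42 ± 1.23 against 2.67 ± 0.534 FPKM, adjusted p = 0.688). Pdgfb, through which sprouting endothelium recruits pericytes, was higher in both lines, by 0.68 in Has2 (adjusted p = 0.390) and 0.42 in PH20 (adjusted p = 0.731). With single libraries left out, Notch1 lost its call without Has2_TG 2 (-0.58), Has2_TG 4 (-0.55), Has2_WT 1 (-0.55) or Has2_WT 4 (-0.57). Pdgfb lost it in Has2 without Has2_TG 3, Has2_TG 4, Has2_WT 1 or Has2_WT 4 (0.55 to 0.62), and in PH20 without PH20_TG 1, 3 or 4 or PH20_WT 1 or 3 (0.27 to 0.44). Jag2 kept its call without any single library (0.82 without the one labelled PH20_TG 1), but the B cell score ended the PH20 calls of Jag2 (0.54) and Pdgfb (0.14). Pdgfb in PH20 also lost its call under quantile normalization (0.41), with no variance trend (0.42) and with all 16 libraries in one fit (0.42).

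Hypoxia response genes, which share the oxygen-sensing pathway that raises Vegfa, gave 2 lower and 0 higher of 12 tested in Has2 and 0 calls in PH20. Of all genes 3.75% were called lower and 6.25% higher in Has2, and 6.59% in either direction in PH20. Pdk1, a kinase that turns pyruvate away from the mitochondria, fell by 0.87 on the log2 scale (8.17 ± 3.08 FPKM in Has2_TG, 14.5 ± 3.04 in Has2_WT, adjusted p = 0.273). Slc2a1, a widely expressed glucose transporter, fell by 0.91 (1.70 ± 0.495 against 3.35 ± 1.19 FPKM, adjusted p = 0.364), and was not past the threshold without Has2_TG 2 (-0.77), Has2_WT 1 (-0.75) or Has2_WT 2 (-0.79). Vegfa did not pass the test beside them. As for Tek, the progenitor score as a covariate ended the Has2 calls of Pdk1, which turned to 0.02, and of Acvrl1 (0.03), Ackr1 (0.36), Vegfc (0.63), Pdgfb (0.74) and Slc2a1 (-0.48). The B cell score ended those of Vegfc (1.11), Notch1 (-0.72), Pdgfb (0.53) and Slc2a1 (-0.53).

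**Figure D4:**
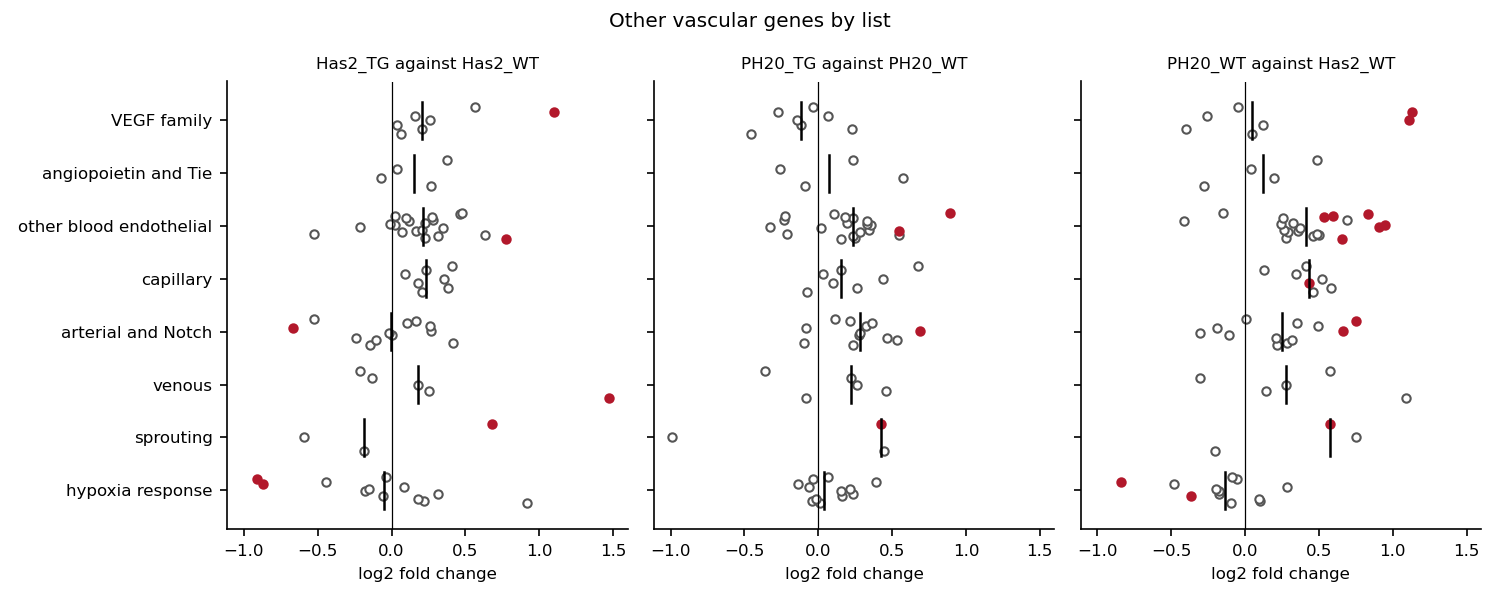
Log2 differences of the 70 other vascular genes in 8 lists (1 point per gene, filled red where unadjusted p was under 0.05, vertical bar at the list median) in the Has2, PH20 and control comparisons. Called genes are few in the Has2 and PH20 panels, 7 and 4 of 70, and in the control panel most called genes lie to the right, 12 higher in PH20_WT and 2 lower.

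The 10 genes did not vary as one block. Over the 16 libraries the pairwise Pearson correlations of log2 levels were highest for Tie1 with Esam (0.87) and Tie1 with Cdh5 (0.84), and the lowest of all 45 pairs was -0.43. Genes closest to the mean of the 9 endothelial members (each centred and scaled) among 12593 genes were Ptprb (r = 0.93 over 16 libraries), Tm4sf1 (0.91), Aqp1 (0.90), Robo4 (0.89) and Podxl (0.89). Ptprb is the endothelial phosphatase that acts on Tek, Robo4 is an endothelial guidance receptor, and Aqp1 is a water channel of capillaries. Tek taken alone was closest to other genes: Aspn (0.96), Camk2n1 (0.94), Dpep1 (0.94), Col4a4 (0.94) and Tmem263 (0.94), a search added after the values had been seen. Aspn encodes a small proteoglycan of the matrix and Col4a4 a basement membrane collagen chain. Vegfa was closest to Mrap (0.94), an adipocyte accessory protein of melanocortin receptors, Slc1a5 (0.92) and Pla2g12a (0.91), and its correlation with the mean of 7 adipocyte genes was 0.85. All these values describe libraries that share 4 groups and carry no test.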

How the data were processed

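RNA from iWAT was sequenced in 16 TruSeq libraries. The submitters' processing notes name FastQC 0.11.9, STAR 2.7.9a, MultiQC 1.12 and DESeq2, with genome GRCm38. The authors deposited FPKM per gene and library, with gene lengths and positions. Each FPKM value was a whole multiple of the value of 1 read (100% of values within 0.02 of a whole read), so reads per gene were recovered from them. The library total behind FPKM was 0.886 to 1.14 times the reads on genes, so the values carry a scaling by the authors beyond depth. None of the 120 pairs of libraries agreed within sampling noise (lowest chi-square per degree of freedom 28.7).

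Differences were tested with limma 3.58.1 (R 4.3.3; tables with Python 3.11.15) on log2(FPKM + 0.1), with a variance trend, for every gene that averaged 50 reads or more. The pseudocount understates changes of low genes. Tests were two-sided and called at unadjusted p < 0.05, the threshold of the study, with Benjamini-Hochberg adjusted values over all genes tested beside it. The Has2 and PH20 fits used 8 libraries each, and the difference between lines and the control comparison used all 16. A count model was not used, since the deposited unit is FPKM. On simulated data 80% of 2-fold changes were recovered in the Has2 comparison (12604 genes) and 82% in the PH20 comparison (12511 genes), and 97% and 99.5% of 4-fold changes. The simulated noise was drawn independently for each gene and library. Shifts shared by many genes, such as those of muscle or B cell RNA, were thus absent, and recovery in the real libraries could differ.

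The 10 genes, the lists and the tests were chosen with earlier results of these data known. Named genes were the 10 members, up to 3 genes per vascular list past the threshold in each line, the genes most correlated with the endothelial mean (5) and with Vegfa (3), and the transgenes. Positions of all 10 genes were identical to GENCODE M21. The labels do not say whether a library came from 1 animal or a pool, and p-values measure the spread between libraries, which may be technical in part. Alternatives were other scalings, pseudocount, filters, weights, covariates for muscle, B cell and progenitor genes, a replicate block and leaving out each library.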

Additional observations from a re-analysis of the deposited data

Results flagged for a closer look

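Tal1, a transcription factor of blood and endothelial precursors, was at 1.86 FPKM in Has2_WT 1, far from the other Has2_WT libraries at 0.538 to 0.668 FPKM (gap 0.902 of the group's range). Among 80 groups of 4 libraries examined, this was the 1 sample to stand out by Dixon's criterion, which chance alone meets in about 1 in 20 groups. The same library had the highest summed B cell level of its group, 286 FPKM, and the part of other cells in the value was not tested.

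The response of Tek differed between the lines at the unadjusted threshold of limma, by 1.51 on the log2 scale, but not after adjustment (adjusted p = 0.571). Tek was higher in 4 of 4 Has2_TG libraries than in any Has2_WT library, whereas 2 of 4 PH20_TG libraries lay above and 2 below all PH20_WT libraries.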

How the results depend on the processing

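Of the 10 genes, Tek kept its direction and its call in the Has2 comparison when each of the 8 libraries was left out (1.11 to 1.45) and under 11 of 12 other settings. The exception, the progenitor score as a covariate (chosen after seeing the data), gave 0 called members. The adjusted p of Tek ranged from 0.0717 to 0.981 over those 12 settings. The difference of Tek between the lines kept its call in 16 of 16 leave-one-out fits (1.28 to 1.72) and 11 of 11 other settings (0.72 to 1.71). The lowest value, 0.72, came with the progenitor score as a covariate. Leaving out 1 library gave 1 called member in every Has2 fit, 0 to 1 in PH20, 1 to 2 for the difference between lines (2 without Has2_WT 4 or PH20_TG 1) and 1 to 5 between controls. In PH20, 1 member was called with all 16 libraries in one fit (Vegfa, adjusted p = 0.899), and 1 with the muscle score as a covariate, under which 1 was called between controls (Tek).

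Replicate numbers did not pair the samples in Has2, and whether they did in PH20 could not be settled. Deviations of same-numbered libraries correlated between -0.179 and 0.13 in Has2 and between -0.0361 and 0.418 in PH20, and 0 of 4 and 2 of 4 numbers matched best with their own. With a replicate block, 1 member was called in PH20 (Vegfa 0.52, adjusted p = 0.390) and 2 in the difference between lines.

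Directions were less stable for uncalled differences, and 1 called difference, that of Pdk1 in Has2, turned to 0.02 with the progenitor score. The cause was not tested. In Has2, Vegfa turned to 0.01 under quantile normalization and Emcn to -0.29 with the B cell score. With the progenitor score the Has2 differences became 0.11 for Vegfa, -0.27 for Flt1, -0.52 for Tie1, -0.86 for Pecam1, -0.61 for Cdh5, -0.19 for Esam, -0.13 for Emcn and -0.35 for Vwf. In PH20 the B cell score gave -0.43 for Kdr, -0.39 for Cdh5, -0.0023 for Esam and -0.14 for Vwf, the muscle score gave 0.15 for Tek, 0.11 for Pecam1 and 0.22 for Emcn, and the progenitor score gave -0.01 for Kdr. With single libraries left out, sign changed in Has2 for Vegfa (-0.17 to 0.11), Kdr (-0.26 to 0.11), Pecam1 (-0.06 to 0.35) and Emcn (-0.10 to 0.76), and in PH20 for Kdr (-0.22 to 0.20), Cdh5 (-0.19 to 0.29), Emcn (-0.27 to 0.02) and Vwf (-0.24 to 0.50). Vegfc fell under the minimum of reads in 3 of 8 leave-one-out fits and then had no value.

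With 4 libraries a group, intervals of the 10 genes spanned 0.34 to 1.07 log2 units on either side of the Has2 and PH20 differences, so a true difference of that size or smaller could go uncalled.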

Other observations

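Cells around and beside the blood endothelium were read from the same libraries. In PH20, 4 of 9 genes of mural cells, the pericytes and smooth muscle cells that wrap vessels, were called higher (Pdgfrb, Cspg4, Notch3 and Higd1b). Of all genes 3.20% were called higher, and 0 passed after adjustment. All 9 differences were positive, with a median of 0.54 on the log2 scale. The 9 genes summed to 130 to 214 FPKM in PH20_TG and to 74.5 to 152 FPKM in PH20_WT. These sums overlapped, and the lowest was that of PH20_WT 1. The mural calls without the library labelled PH20_TG 1, or with the muscle or B cell score, are not given here. In Has2, 0 of the 9 were higher and 1, Myh11, was lower by limma at unadjusted p < 0.05, where 3.75% of all genes were lower. The median of the 9 was -0.34. The difference between the lines was called for 4 of the 9, each lower in Has2, as it was for 3.68% of all genes. Of 6 lymphatic endothelial genes 3 were tested in Has2 and 2 called higher, where 6.25% of all genes were, and 0 of 4 were called in PH20 by limma. Their sum overlapped between the Has2 groups, at 26.9 to 37.6 FPKM in Has2_TG and 8.24 to 43.7 FPKM in Has2_WT. Prox1 and Ccl21a, a pair of their defining markers, were at 0 in at least 1 library of every group. Mmrn1 was so in both Has2 groups. Platelet genes, relevant because platelets carry Pecam1 and Vwf, summed to 43.7 to 66.9 FPKM in Has2_TG and 21.9 to 43.6 FPKM in Has2_WT. Only 2 of the 5 platelet genes had enough reads to test, with 1 difference positive and 1 negative. Gp9 and Gp1bb had 0 reads in at least 1 library of every group, so the sums rest on few genes. The part of platelets in the values of Pecam1 and Vwf was not tested.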
